A study of Homo sapiens with 6 samples.

Results

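The 9 genes described here encode the interleukin-22 (IL-22) receptor and signalling proteins of this and other cytokine receptors. They are the receptor chains IL22RA1 and IL10RB and the Janus kinases JAK1, JAK2 and TYK2. The others are the transcription factors STAT3, STAT5B and STAT6 and the feedback inhibitor SOCS3. All 9 were chosen by name, as a pathway group, and are among the 22152 genes of the deposited table. The data are RNA-seq profiles of HaCaT cells, a spontaneously immortalised human keratinocyte line, so a single line stands for keratinocytes. The groups were 3 samples transfected with a negative control (NC) mimic and 3 transfected with a miR-21-3p mimic, which raises the amount of this small regulatory RNA. Both mimics were used at 1 nM and polyA RNA was collected 48 h later, with no cytokine named in the labels of either group. The comparison asks how the mRNAs of this pathway differ in keratinocytes given the miR-21-3p mimic.

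IL-22 is made by lymphocytes and acts on epithelial cells, because IL22RA1 is expressed by epithelia and not by most blood cells. IL-22 binds IL22RA1 paired with IL10RB, the kinases JAK1 and TYK2 bound to these chains phosphorylate the receptor, and STAT3 is recruited, phosphorylated and moved to the nucleus. In keratinocytes this pathway is known for driving proliferation and antimicrobial genes and for restraining terminal differentiation, as in psoriatic skin. SOCS3 is induced by STAT3 and shuts the signal off. Signalling runs through phosphorylation, so mRNA levels describe how much of each transcript is present and not how active the pathway was.

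The libraries held between about 24404639 reads (NC mimic replicate 1) and 27985680 reads (miR-21-3p mimic replicate 3) assigned to the listed genes. Values are the authors' normalised read counts, that is, reads divided by a size factor for each library. The keratinocyte marker list holds 14 genes, among them EPCAM, which is an epithelial gene and not particular to keratinocytes. All 14 were listed, and their summed value averaged 425573 in the NC mimic libraries and 422220 in the miR-21-3p mimic libraries. KRT5, a basal keratin, was the most abundant of them. Of the 14, EPCAM was higher (log2 difference 0.18, limma adjusted p = 0.0282) and ITGB4 lower (-0.26, adjusted p = 0.0381) with the miR-21-3p mimic. Both calls were lost without NC mimic replicate 1 (adjusted p = 0.0855 and 0.142), NC mimic replicate 3 (0.0822 and 0.134), miR-21-3p mimic replicate 1 (0.0919 and 0.145) or miR-21-3p mimic replicate 3 (0.0892 and 0.137), and that of EPCAM also without miR-21-3p mimic replicate 2 (0.0618). With all libraries limma called 2 of the 14, or 14.3%, beside 10.8% of all genes tested, edgeR called 2 and DESeq2 3. All 3 miR-21-3p mimic values were below all 3 NC mimic values for 1 of the 14 and above them for 3. This stands beside 14.8% and 16.5% of all genes tested. The marker lists of other cell types had lower sums, but few of their genes were listed, so the sums do not measure how pure the cells were. COL1A1 was the only listed gene of 7 fibroblast markers, with a mean of 476 in the NC mimic and 371 in the miR-21-3p mimic libraries. All 3 of its miR-21-3p mimic values were below all 3 NC mimic values (log2 difference -0.34, limma adjusted p = 0.0635), and DESeq2 called it. The 2 listed melanocyte genes summed to 634 and 596. Of them, MITF was at 476, 510 and 512 with the NC mimic and 441, 464 and 459 with the miR-21-3p mimic, without overlap (log2 difference -0.13, adjusted p = 0.218), while PMEL overlapped (0.07, adjusted p = 0.744). CD14, the only listed gene of 6 myeloid markers, averaged 76 and 84, and VWF, the only one of 5 endothelial markers, averaged 749 and 740. The NC mimic means of COL1A1, MITF (499) and VWF were above that of IL22RA1 (406). The part of these marker differences in the results was not tested. None of the 6 T cell markers was analysed here. The mimic, a short RNA without a polyA tail, was not measured in these libraries. The sample labels give polyA RNA, while the published methods name small RNA libraries, and the labels were followed here.

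Across all genes tested, 1600 of 14782 differed between the mimics (limma, Benjamini-Hochberg adjusted p under 0.05), 691 of them lower and 909 higher with the miR-21-3p mimic. NC mimic replicate 2 lay closest to the miR-21-3p mimic libraries on the first principal component, at -1.74, against -21.17 and -13.40 for the other NC mimic libraries and 6.81 to 17.87 for the miR-21-3p mimic libraries. Measures of library composition also differed between the groups without overlap. Mitochondrial genes took 9.01%, 8.91% and 9.42% of the summed values in the NC mimic libraries and 8.4%, 8.61% and 8.33% in the miR-21-3p mimic libraries. The 10 most abundant genes took 9.78%, 9.45% and 10.05%, and 8.95%, 9.20% and 8.79%. The part of these shares in the differences was not tested. The number of genes called rose to 2961 without NC mimic replicate 2. It was 544 without NC mimic replicate 1, 179 without NC mimic replicate 3, 279 without miR-21-3p mimic replicate 1, 1539 without miR-21-3p mimic replicate 2 and 368 without miR-21-3p mimic replicate 3.

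Among the 9 genes, STAT3 was the one that passed the test, and it was lower by 12.1% with the miR-21-3p mimic. This is 1 of 9, or 11.1%, beside 10.8% of all genes tested, so the share called was near the background. In the lower direction alone it was 1 of 9 beside 4.67% of all genes, and in the higher direction 0 of 9 beside 6.15%. Neither of the 2 genes with a positive difference had an unadjusted p under 0.05, and edgeR and DESeq2 called neither. Of the 9 differences 7 were negative, as were 48.9% of those of all genes tested, and the median log2 difference of the 9 genes was -0.12 beside 0.00 for all genes.

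**Figure D1:**
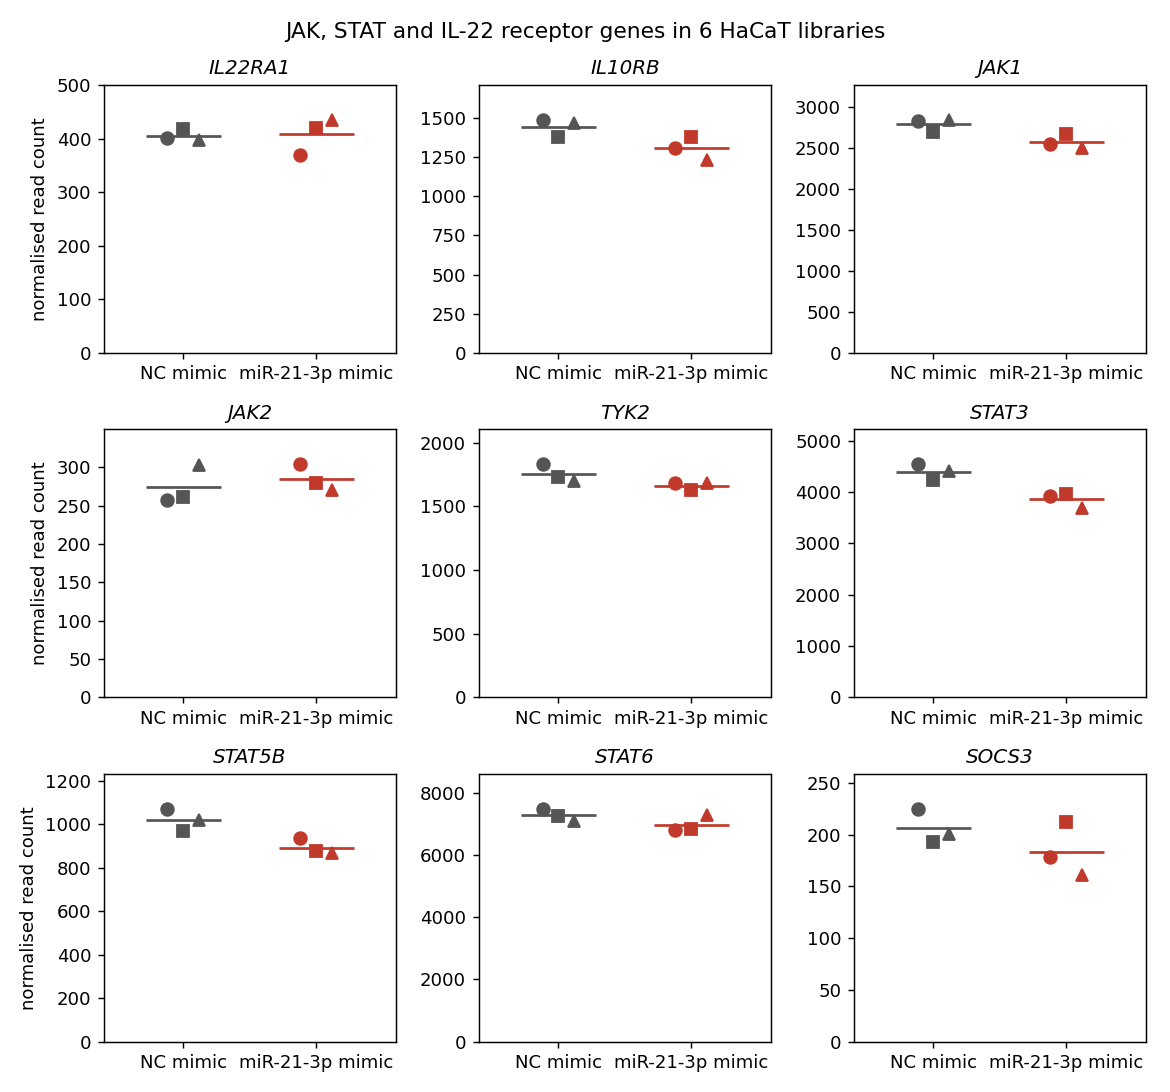
Normalised read count of each of the 9 genes in the 6 HaCaT libraries, with a circle for replicate 1, a square for replicate 2, a triangle for replicate 3 and a line for the group mean; every vertical axis starts at 0. STAT3, STAT5B, JAK1 and TYK2 had all 3 miR-21-3p mimic libraries below all 3 NC mimic libraries, by margins that are small beside the level itself.

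IL22RA1 (ENSG00000142677), the chain that makes a cell responsive to IL-22, had normalised read counts of 401, 418 and 398 in NC mimic replicates 1, 2 and 3 and of 369, 419 and 435 in the miR-21-3p mimic replicates. The groups overlapped, with the lowest and the highest value both in the miR-21-3p mimic group. The log2 difference, miR-21-3p mimic minus NC mimic, was 0.00 with a standard error (SE) of 0.08 (limma adjusted p = 0.98), and its 95% interval ran from 11.2% lower to 13.2% higher. Its sign turned under 6 of 16 alternatives: 2 scalings (-0.001 after median-of-ratios rescaling and -0.005 after upper-quartile scaling) and the fits without NC mimic replicate 1 (-0.004), NC mimic replicate 3 (-0.01), miR-21-3p mimic replicate 2 (-0.018) or miR-21-3p mimic replicate 3 (-0.045).

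IL10RB (ENSG00000243646), the shared second chain of the receptors for IL-22, IL-10, IL-26 and the lambda interferons, was at 1490, 1380 and 1470 in the NC mimic libraries. In the miR-21-3p mimic libraries it was at 1310, 1380 and 1230. The groups met at 1380, the value of replicate 2 in both, and the other NC mimic values were above all miR-21-3p mimic values. The log2 difference was -0.15 (SE 0.06, limma adjusted p = 0.116), which did not pass the test. In the GENCODE v29 annotation 38.1% of the merged exon bases of IL10RB are shared with a protein-coding read-through gene on the same strand, and how reads in shared exons were assigned is not given in the sources used here, so the level of IL10RB is uncertain to that extent.

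JAK1 (ENSG00000162434), the kinase attached to IL22RA1 and to many other cytokine receptors, had values of 2830, 2690 and 2840 with the NC mimic and 2540, 2670 and 2500 with the miR-21-3p mimic. All 3 miR-21-3p mimic libraries were below all 3 NC mimic libraries, although NC mimic replicate 2 and miR-21-3p mimic replicate 2 were separated by less than the SD of either group. The group means were 2790 ± 83.9 and 2570 ± 88.9 (SD, n = 3 each). The log2 difference was -0.12 (SE 0.05, limma adjusted p = 0.125).

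TYK2 (ENSG00000105397), the kinase attached to IL10RB, was at 1830, 1730 and 1700 with the NC mimic. With the miR-21-3p mimic it was at 1680, 1630 and 1680. Again the groups did not overlap, but the lowest NC mimic value was close to the highest miR-21-3p mimic value, and the log2 difference of -0.08 (SE 0.05) did not pass the test (limma adjusted p = 0.337). This difference was -0.04 without NC mimic replicate 1, with adjusted p from 0.279 to 0.641 over all alternatives.

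JAK2 (ENSG00000096968), which serves the receptors for growth hormone, erythropoietin and interferon gamma more than the IL-22 receptor, had 258, 262 and 303 reads after normalisation with the NC mimic and 304, 279 and 271 with the miR-21-3p mimic. The groups overlapped, and the means of 274 ± 24.9 and 285 ± 17.2 (SD, n = 3 each) differed by less than either SD. The log2 difference was 0.06 (SE 0.09, limma adjusted p = 0.732), with a 95% interval from 9.7% lower to 19.6% higher. The difference was 0.01 without miR-21-3p mimic replicate 1 and 0.13 without NC mimic replicate 3, with adjusted p from 0.497 to 0.977 over all alternatives.

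STAT3 (ENSG00000168610), the main transcription factor of the IL-22 receptor, had values of 4540, 4230 and 4410 in the NC mimic libraries. In the miR-21-3p mimic libraries the values were 3930, 3960 and 3690. Every miR-21-3p mimic library was below every NC mimic library, and the means, 4390 ± 156 and 3860 ± 148 (SD, n = 3 each), were further apart than the spread within the groups. STAT3 fell by 0.19 on the log2 scale (SE 0.05, limma adjusted p = 0.0279), with a 95% interval from 18.2% to 5.68% lower. In bulk RNA, fewer cells with the transcript and less of it per cell cannot be told apart. The recovered reads gave an adjusted p of 0.0278 with edgeR and 0.0122 with DESeq2. This call depended on single libraries: the adjusted p was 0.0874 without NC mimic replicate 1, 0.113 without NC mimic replicate 3, 0.0901 without miR-21-3p mimic replicate 1 and 0.112 without miR-21-3p mimic replicate 3. Over all alternatives the log2 difference lay between -0.214 and -0.155, and the adjusted p lay between 0.0088 and 0.113.

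STAT5B (ENSG00000173757), a STAT best known from growth hormone and interleukin-2 signalling, was at 1070, 969 and 1020 with the NC mimic and at 938, 874 and 865 with the miR-21-3p mimic. The groups did not overlap, and the log2 difference of -0.19 (SE 0.06) was as large as that of STAT3. It missed the threshold (limma adjusted p = 0.0597) and passed it without NC mimic replicate 2 (adjusted p = 0.0237), within a range of 0.0237 to 0.18 over all alternatives. STAT5B shares long near-identical stretches with its neighbour STAT5A, which was not analysed here, and reads that fit both genes could have been counted in either way.

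STAT6 (ENSG00000166888), the STAT of the interleukin-4 and interleukin-13 receptors, was at 7480, 7260 and 7090 with the NC mimic. It was at 6810, 6820 and 7270 with the miR-21-3p mimic. The groups overlapped because miR-21-3p mimic replicate 3 was above 2 of the 3 NC mimic libraries, and the log2 difference was -0.06 (SE 0.05, limma adjusted p = 0.383).

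SOCS3 (ENSG00000184557), which binds JAK kinases and gp130-type receptors and is itself a STAT3 target, had values of 225, 193 and 201 with the NC mimic and 178, 212 and 161 with the miR-21-3p mimic. The groups overlapped, since miR-21-3p mimic replicate 2 was above 2 of the 3 NC mimic libraries. Its spread was the widest of the 9 genes in the miR-21-3p mimic group, with a coefficient of variation of 14.1%. The log2 difference of -0.17 (SE 0.12) was close in size to that of STAT3 but did not pass the test (limma adjusted p = 0.358). It moved with single libraries, to -0.08 without miR-21-3p mimic replicate 3, -0.11 without NC mimic replicate 1 and -0.28 without miR-21-3p mimic replicate 2, and the adjusted p lay between 0.143 and 0.738 over all alternatives.

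In all, 4 of the 9 genes (STAT3, STAT5B, JAK1 and TYK2) had the miR-21-3p mimic group wholly below the NC mimic group, beside 14.8% of all genes tested. None had it wholly above, beside 16.5% of all genes. The same arrangement in the lower direction was found in 13 of the 52 other pathway genes tested, and that in the higher direction in 10. At an unadjusted p under 0.05, 4 of the 9 genes passed, beside 28.5% of all genes. The count of the 9 genes called was 0 without NC mimic replicate 1, NC mimic replicate 3, miR-21-3p mimic replicate 1 or miR-21-3p mimic replicate 3. In these fits 3.68%, 1.21%, 1.89% and 2.49% of all genes were called. At an unadjusted p under 0.05 limma gave 2 of the 9 genes in each of them. The share of all genes at this unadjusted threshold is given here for the main fit only. The count called was 2, STAT3 and STAT5B, without NC mimic replicate 2, where 2961 of all 14782 genes were called.

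**Figure D2:**
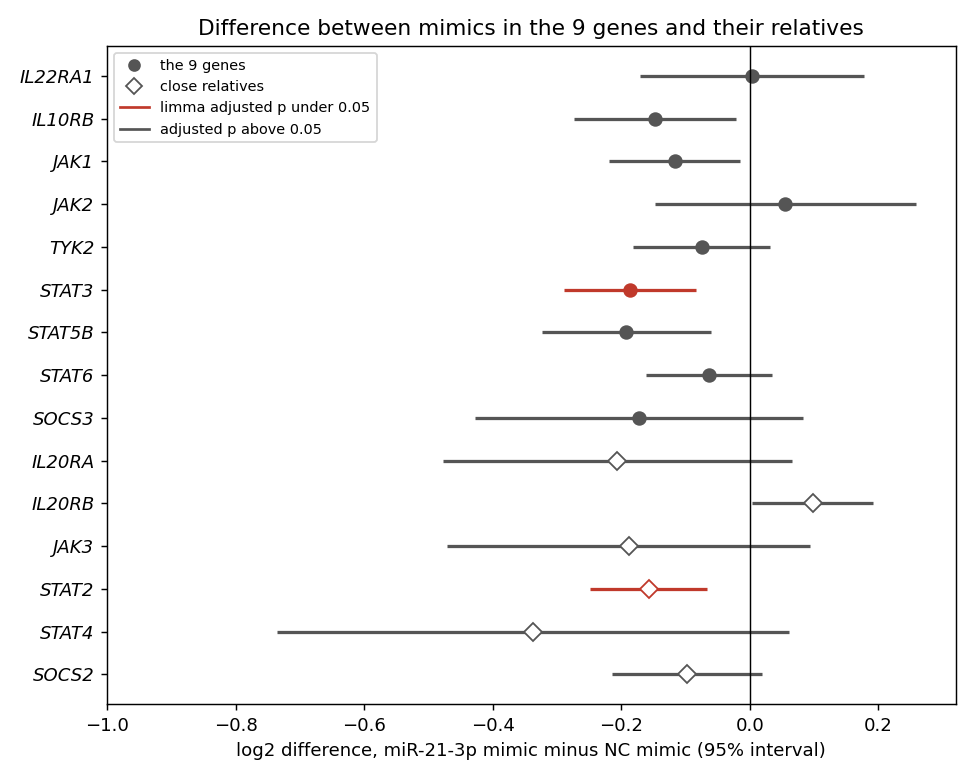
Log2 difference, miR-21-3p mimic minus NC mimic, with its 95% interval from limma for the 9 genes (filled circles) and 6 close relatives (open diamonds); red marks an adjusted p under 0.05. STAT3 and its relative STAT2 are red and lie left of 0, while IL20RB lies right of 0 without passing the test.

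The pattern over the 6 libraries was compared within the pathway, as the root mean square distance between log2 values centred on each gene's mean. Of 60 other tested pathway genes, the closest to STAT3 were IL10RB at 0.03, STAT5B at 0.04 and JAK1 at 0.04, against a median distance of 0.12. The closest to JAK1 were IFNGR1, a chain of the interferon gamma receptor, at 0.02, SOCS2, an inhibitor of growth hormone signalling, at 0.03, and IL6ST (gp130), the shared receptor chain of the IL-6 family, at 0.03, against a median of 0.10. These distances include the difference between the mimics and are a description only.

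Levels were compared between genes per length, as normalised reads per kb of merged GENCODE v29 exons, which may differ from the transcripts used by HaCaT cells. In the NC mimic libraries STAT6 had the highest level of the 9 genes, at 997 ± 26.8 (SD, n = 3), followed by STAT3 at 499 ± 17.7 and JAK1 at 441 ± 13.3. IL10RB followed at 318 ± 12.9 and TYK2 at 259 ± 10. STAT5B at 158 ± 7.83 and IL22RA1 at 145 ± 3.85 were neighbours whose order turned with the miR-21-3p mimic, where they were at 138 ± 6.17 and 146 ± 12.3 and did not differ beyond their spread. SOCS3 at 75.5 ± 6.09 and JAK2 at 44.5 ± 4.04 were the lowest. On this scale the level of IL10RB was above that of its partner IL22RA1, and JAK1 was above TYK2 and JAK2. The related receptor chain IL20RB, which pairs with IL22RA1 or IL20RA for IL-20 and IL-24, was at 1570 ± 40.5, the highest of the 60 pathway genes with a length, and IL20RA was at 45.5 ± 8.28.

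**Figure D3:**
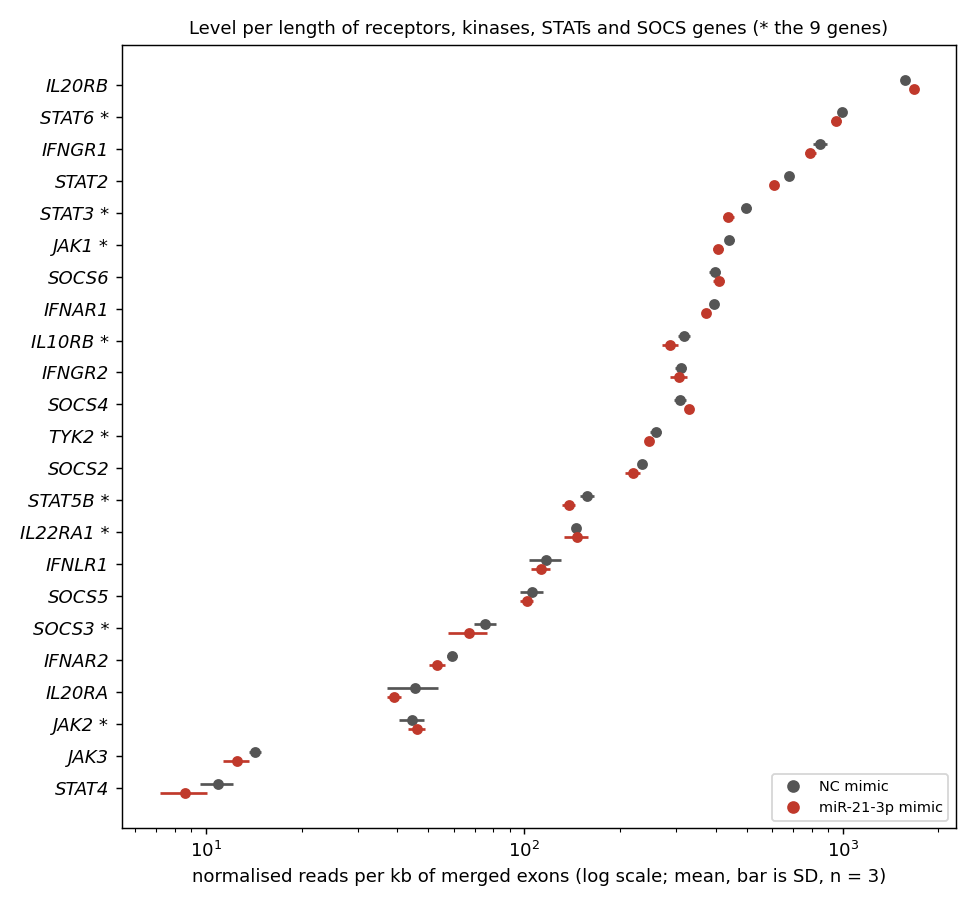
Normalised reads per kb of merged exons on a log axis for class 2 cytokine receptors, Janus kinases, STAT and SOCS genes, as the mean with the SD of 3 libraries for each mimic; asterisks mark the 9 genes. The levels run from IL20RB and STAT6 at the top to JAK3 and STAT4 at the bottom, and the gap between the mimics is small beside the range between genes.

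Among the close relatives, STAT2, which acts with IRF9 in type I interferon signalling, passed the test. Its values were 4220, 4090 and 4170 with the NC mimic and 3640, 3770 and 3780 with the miR-21-3p mimic, and the groups did not overlap. STAT2 fell by 0.16 on the log2 scale (SE 0.04, limma adjusted p = 0.0346). It passed without NC mimic replicate 2 (adjusted p = 0.0232) and with no other library left out, where the highest adjusted p was 0.153, without miR-21-3p mimic replicate 1. IL20RB (0.10, adjusted p = 0.159), IL20RA (-0.21, adjusted p = 0.301), JAK3 (-0.19, adjusted p = 0.367), STAT4 (-0.34, adjusted p = 0.249) and SOCS2 (-0.10, adjusted p = 0.252) did not pass limma's test either. Without NC mimic replicate 1 the difference of IL20RA was -0.07, without NC mimic replicate 3 it was -0.32, and that of JAK3 was -0.11 without miR-21-3p mimic replicate 1. STAT5A, IL10RA, IL22RA2 and SOCS1 were not analysed here.

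The wider list holds 113 ligands, receptors, kinases, STATs, inhibitors and adaptors of JAK-STAT signalling. Of these, 65 were listed and 61 were tested, and nothing is known here of the level of those not listed. Of the 61 tested, 10 passed, 7 lower and 3 higher with the miR-21-3p mimic. This is 16.4%, beside 10.8% of all genes, and the median log2 difference was -0.07. Besides STAT3 and STAT2, the lower genes were ligands, receptors and adaptors. CTF1, which encodes cardiotrophin-1, a ligand of gp130, fell by 0.50 on the log2 scale (limma adjusted p = 0.0218), and IL15, a ligand of the interleukin-2 receptor beta chain, fell by 0.29 (adjusted p = 0.0296). IL6R, the chain that binds IL-6, was at 411, 370 and 405 with the NC mimic and 292, 323 and 264 with the miR-21-3p mimic, without overlap, and fell by 0.43 (adjusted p = 0.0145). The adaptor SH2B1 fell by 0.21 (adjusted p = 0.0394) and the coactivator CREBBP, which acetylates histones beside STATs, fell by 0.15 (adjusted p = 0.0433). The higher genes were PTPN1, a phosphatase that removes phosphate from JAK2 and TYK2, PTPN11, the phosphatase SHP2, and LIF, another ligand of gp130. PTPN1 was at 2970, 3250 and 3060 with the NC mimic and 3710, 3630 and 3680 with the miR-21-3p mimic, a log2 difference of 0.25 (adjusted p = 0.00962). PTPN11 (0.15, adjusted p = 0.0482) and LIF (0.24, adjusted p = 0.049) were just past the threshold, and each lost the call under 12 of 16 alternatives, other scalings and DESeq2 among them (adjusted p from 0.0222 to 0.189 for PTPN11 and from 0.0482 to 0.176 for LIF). The count of 10 fell to 1 without NC mimic replicate 1 or miR-21-3p mimic replicate 3, beside 3.68% and 2.49% of all genes. It fell to 0 without NC mimic replicate 3 or miR-21-3p mimic replicate 1, beside 1.21% and 1.89%. Without miR-21-3p mimic replicate 2 it was 5 of 61, a smaller share than the 10.4% of all genes called in that fit, and it was 14 without NC mimic replicate 2, where 2961 of all 14782 genes were called. The call of PTPN1 was lost without NC mimic replicate 3 (adjusted p = 0.0619) or miR-21-3p mimic replicate 1 (0.0589). Those of CTF1, IL15, IL6R, SH2B1 and CREBBP were each lost without NC mimic replicate 1, NC mimic replicate 3, miR-21-3p mimic replicate 1 or miR-21-3p mimic replicate 3, with adjusted p up to 0.11, 0.117, 0.0756, 0.141 and 0.126. SH2B1 (0.102) and CREBBP (0.094) also lost theirs without miR-21-3p mimic replicate 2. Where limma called 0, it gave 13 and 16 of the 61 pathway genes at an unadjusted p under 0.05. The share of all genes at that threshold is not given for these fits, so no excess is read from these counts. In the main fit the count was 20 of 61, beside 28.5% of all genes. With all libraries, edgeR and DESeq2 each called 9.

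The counts by role are over small lists and stand beside the 10.8% of all genes called. Those at an unadjusted p under 0.05 stand beside 28.5% of all genes. Of 9 class 2 receptors 0 passed limma's test, with 2 at an unadjusted p under 0.05 and 0 by edgeR or DESeq2. Of 4 Janus kinases 0 passed, with 1 at an unadjusted p under 0.05 and 0 by edgeR or DESeq2. The class 1 receptors gave 1 of 13, with a median log2 difference of -0.14 (1 by edgeR and 2 by DESeq2). Of the 5 STAT factors reported, 2 passed (2 by edgeR and 2 by DESeq2). The inhibitors gave 1 of 16, with a median of 0.04 (1 by edgeR and 1 by DESeq2). The adaptors and partners gave 3 of 9, with a median of 0.00 (2 by edgeR and 2 by DESeq2). Of 23 other ligands 5 were listed and tested, and 3 passed (3 by edgeR and 2 by DESeq2). None of the 9 ligands of the IL-22 and IL-10 family was analysed here.

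**Figure D4:**
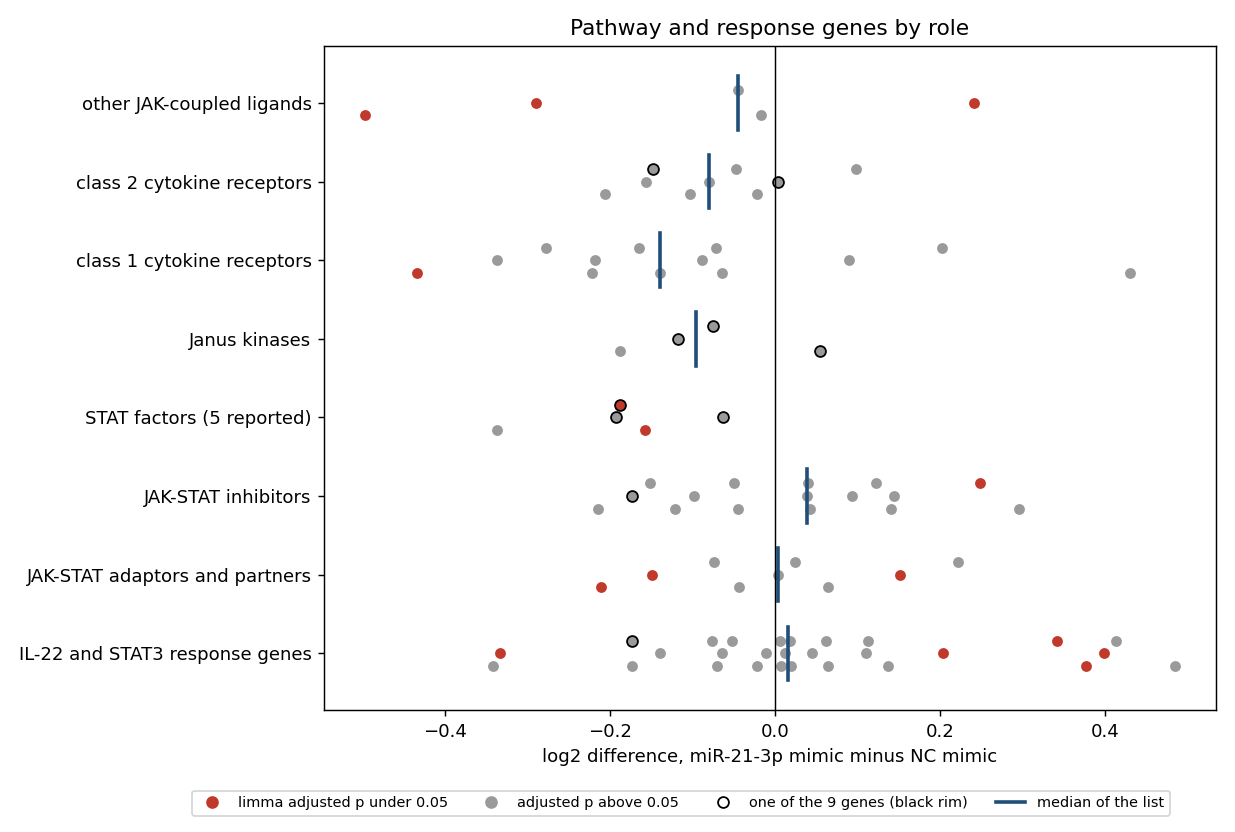
Log2 difference, miR-21-3p mimic minus NC mimic, of every tested gene of the pathway roles and of the response list, with a bar at the median of each list except the STAT factors; red points have a limma adjusted p under 0.05 and black rims mark the 9 genes. The median of the class 1 receptors (-0.14) lies left of 0, and that of the response list (0.02) lies near 0.

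Genes known to respond to IL-22 or STAT3 in epithelia were set beside the pathway. Of 46 such genes 28 were listed and tested, and 5 passed, 1 lower and 4 higher, and edgeR and DESeq2 each called 5. This is 17.9%, beside 10.8% of all genes, and the median log2 difference was 0.02 beside 0.00. BIRC5, which encodes the survival protein survivin, was at 2080, 2480 and 2300 with the NC mimic and 2900, 2940 and 3190 with the miR-21-3p mimic, and rose by 0.40 on the log2 scale (limma adjusted p = 0.00538). MYC, a driver of growth, was at 3180, 2730 and 2740 and then at 3760, 3860 and 3590, and rose by 0.38 (adjusted p = 0.00538). KRT6A, a keratin of activated keratinocytes, was at 16800, 17100 and 16500 and then at 21500, 20700 and 21700, and rose by 0.34 (adjusted p = 0.00203). All 3 genes had no overlap between the groups and passed the test with any single library left out. HIF1A, the oxygen-regulated transcription factor, rose by 0.20 (adjusted p = 0.0431). LCN2, an antimicrobial protein that IL-22 induces, was lower, at 1070, 930 and 1030 with the NC mimic and 803, 829 and 769 with the miR-21-3p mimic, and fell by 0.33 (adjusted p = 0.0111). LCN2 lost its call without NC mimic replicate 3 (adjusted p = 0.0667), miR-21-3p mimic replicate 1 (0.0564) or miR-21-3p mimic replicate 3 (0.0502). HIF1A kept its call without NC mimic replicate 2 and lost it without any other library (adjusted p up to 0.169) and with DESeq2 (0.073). The count of the response list was 3 without NC mimic replicate 3, miR-21-3p mimic replicate 1 or miR-21-3p mimic replicate 3, beside 1.21%, 1.89% and 2.49% of all genes. It was 9 without NC mimic replicate 2, where 2961 of all 14782 genes were called.

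The promoters of the 9 genes were searched for the letters that STAT dimers bind, TTCNNNGAA, and for the longer form TTCNNNNGAA that STAT6 prefers. Each has the same form on both strands. RefSeq promoters (GRCh38.p14), each running from 250 bases before to 50 bases after a start site, were found for all 9 genes, 15 promoters in all. The shorter motif was in 1 of the 15, or 6.67%, beside 7.66% of 35116 promoters, and the longer form was in 0, beside 6.44%. In the wider pathway list the shorter motif was in 17 of 139 promoters, or 12.2%, and the longer form in 6.47%. In the list of genes responding to IL-22 or STAT3 these were 2 of 39, or 5.13%, and 2.56%. Of the 15, the promoter with the motif belongs to IL10RB. It is shown with that of STAT3, the gene that passed the test, because IL10RB was the pathway gene closest to STAT3 in its pattern over the libraries. Capitals mark the motif, which begins 11 bases after the first transcribed base. IL10RB lies at chr21:33266117-33266416 on the + strand and STAT3 at chr17:42388393-42388692 on the - strand, both written 5′ to 3′.
IL10RB: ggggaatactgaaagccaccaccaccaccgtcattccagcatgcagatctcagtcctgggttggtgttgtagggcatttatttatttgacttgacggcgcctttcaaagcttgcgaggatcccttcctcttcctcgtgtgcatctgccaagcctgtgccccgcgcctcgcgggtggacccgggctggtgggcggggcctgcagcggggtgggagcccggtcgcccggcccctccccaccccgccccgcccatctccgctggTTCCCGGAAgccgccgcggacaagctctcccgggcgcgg
STAT3: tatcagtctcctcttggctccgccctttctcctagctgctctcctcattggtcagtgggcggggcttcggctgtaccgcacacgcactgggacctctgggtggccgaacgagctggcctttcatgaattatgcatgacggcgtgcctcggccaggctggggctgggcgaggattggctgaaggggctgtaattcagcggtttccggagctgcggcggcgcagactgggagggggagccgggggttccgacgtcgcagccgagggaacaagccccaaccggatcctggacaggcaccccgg
A match is a run of letters and not a measured binding site, and the absence of a match in STAT3 concerns this window alone.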

How the data were processed

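HaCaT libraries were 3 with the NC mimic and 3 with the miR-21-3p mimic, described as biological replicates. Where replicates were not separate cultures, p-values measure only the spread between these samples. Per the submitters' processing notes, bcl2fastq 2.18.12, cutadapt 1.15, TopHat2 2.1.1, featureCounts (Subread 1.5.2) and DESeq2 were used, and the genome build and the annotation are not given in the sources used here. The deposited signal values are read counts that the authors divided by 1 size factor per library and rounded to 3 significant digits. They carry no fold change or p-value.

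Genes with a mean value of at least 10 over the 6 libraries were tested with limma 3.58.1 (R 4.3.3) on log2(value + 1), with a trend in the variance, so fold changes are on that scale and understate changes of low genes. Benjamini-Hochberg adjustment ran over all genes tested, with a threshold of 0.05. A count model, edgeR with TMM scaling, had been planned as the main test for raw counts, and limma took its place. Since the values are normalised, the count model was run as an alternative on recovered reads: in each library 100% of the values worth up to 20 reads were whole multiples of 1 read (within 0.1 read), and reads of high values are recovered only to the rounding. On these reads edgeR 4.0.16 called 1643 genes and DESeq2 1.42.0 called 1589. No pair of replicates agreed within sampling noise (chi-square per gene 1.83 to 3.41). The scripts were tested on simulated data.

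A pathway gene and a gene list that had been planned are not reported here and are left out of the list counts. The members and lists were chosen with earlier results of these data known. Named genes are all 9 members, the close relatives, from each other list the called genes, up to the 8 with the largest differences, and the genes closest in pattern to STAT3 and JAK1. KRT5, COL1A1, MITF, CD14 and VWF are named as the most abundant genes of their marker lists, and PMEL as the other melanocyte marker listed. Exon lengths and overlaps came from GENCODE v29, which may not be the authors' annotation. Alternatives were other scalings, filters and pseudocounts, the count models, a replicate block, and leaving out each library.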

Additional observations from a re-analysis of the deposited data

How the results depend on the processing

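Over all alternatives, 8 of the 9 genes kept the sign of their log2 difference, and IL22RA1 did not. Its difference was -0.001 after median-of-ratios rescaling, -0.005 after upper-quartile scaling, and between -0.045 and 0.074 when each library was left out in turn, with adjusted p from 0.654 to 0.996 over all alternatives.

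STAT3 stayed past the threshold under every scaling, filter, pseudocount and count model, and lost it in 4 of the 6 fits that left out a library and with a replicate block. The replicate numbers do not pair the samples: deviations of same-numbered libraries correlated at -0.01, -0.20 and -0.17, and no library correlated best with its own number. With the replicate block 1202 genes were called by limma. Of the 9 genes it called 0 (3 at an unadjusted p under 0.05, and 1 each by edgeR and DESeq2 without the block), and of the pathway list 3. Of the genes responding to IL-22 or STAT3 it called 4, and HIF1A lost its call (limma adjusted p = 0.0902).

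Leaving out each library in turn gave 179 to 2961 genes called, 0 to 2 of the 9 genes, 0 to 14 pathway genes, and 3 to 9 genes responding to IL-22 or STAT3. These fits have fewer samples. Pseudocounts of 0.5 and 5 and TMM rescaling of the normalised values were chosen after seeing the data. The test planned for raw counts was edgeR, and it became an alternative to limma once the values were seen to be normalised. Apart from the fits that left out a library and the replicate block, the counts stayed within 1.5 times. SOCS3 and JAK2, with the lowest read counts of the 9 genes, had the largest SE of the log2 difference (0.12 and 0.09), and the part of depth in this was not tested.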
